A study of Mus musculus with 2 samples.

Results

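Of the 2202 microRNA genes in the deposited count tables, 9 belong to the epithelial miR-200, miR-183 and miR-203 groups. They were found by matching Ensembl gene identifiers to GENCODE M21 symbols; the rule uses no count, but the groups and the comparison lists were chosen with earlier results of these data known. They are Mir200b, Mir200a and Mir429 in a first miR-200 cluster, Mir200c and Mir141 in a second, Mir183, Mir96 and Mir182 in the miR-183 cluster, and the lone gene Mir203. They were measured by small RNA sequencing of total RNA from the gastrocnemius, a calf muscle, of female mice of the hybrid strain B6CASTF1/J at 25 days of age. The 2 libraries were labelled as biological replicates 1 and 2 of 1 group, with no second tissue or condition. Their source females carried different numbers but the same donor identifier, so the spread between the libraries may or may not be a spread between animals.

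A microRNA is cut from a hairpin and guides Argonaute proteins to messenger RNAs that pair with its seed, bases 2 to 8. The miR-200 genes are known as markers of epithelial cells, in which they repress Zeb1 and Zeb2, transcription factors that silence epithelial genes. The miR-183 cluster is known from sensory organs and sensory neurons, and miR-203 from the differentiating layers of the epidermis, where it represses p63. None of these microRNAs is in common use as a marker of muscle fibres. Which cells of the muscle their reads came from was not tested. Fewer cells of a type and less RNA per cell cannot be told apart in whole tissue.

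All 9 hairpins matched entries of the RefSeq microRNA table (GRCm38.p6). The mature arm usually taken as the main product of each hairpin is shown here with its seed in capitals, because the seeds sort the 9 genes into target groups that cut across the clusters. Of the miR-200 genes, Mir200b, Mir200c and Mir429 share the seed AAUACUG, and Mir200a and Mir141 share AACACUG, which differs in a single base.
miR-200b-3p: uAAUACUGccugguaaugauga
miR-200c-3p: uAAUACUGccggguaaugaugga
miR-429-3p: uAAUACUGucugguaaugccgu
miR-200a-3p: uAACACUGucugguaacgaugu
miR-141-3p: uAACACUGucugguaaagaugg
miR-183-5p: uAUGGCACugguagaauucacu
miR-96-5p: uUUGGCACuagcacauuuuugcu
miR-182-5p: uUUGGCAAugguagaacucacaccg
miR-203-3p: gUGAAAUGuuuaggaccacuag
The seeds of miR-183-5p, miR-182-5p and miR-203-3p were found in no other mature mouse microRNA of the table, and that of miR-96-5p was shared with miR-1271-5p alone. Within the miR-183 cluster, miR-183-5p and miR-182-5p differed at 4 of the first 22 bases, although their seeds differ. The mature arms nearest to each other were miR-200a-3p and miR-141-3p, and miR-200b-3p and miR-200c-3p, each pair with 2 differences in 22 bases. Slid without gaps over the 1004 other annotated hairpins, every one of the 9 arms had at least 2 mismatches to each. None therefore had an exact copy among the other annotated hairpins; the rest of the genome was not searched.

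In the mm10 assembly the first miR-200 cluster lies on the reverse strand of chromosome 4. Mir200b (ENSMUSG00000065549.3) spans 156055681 to 156055750, Mir200a (ENSMUSG00000065400.1) 156054896 to 156054985 and Mir429 (ENSMUSG00000065427.1) 156053905 to 156053987. All 3 lie in introns of the protein-coding gene Ttll10 on the same strand, and Mir429 also overlaps an exon of the transcript gene Gm13648. Mir200c (ENSMUSG00000065462.3) spans chromosome 6 from 124718322 to 124718390 and Mir141 (ENSMUSG00000065474.1) 124717914 to 124717985, with 336 bases between them. Both lie on the reverse strand in an intron of the antisense RNA gene Gm15884, and Mir141 also overlaps an exon of Gm29008. Ptpn6 is the nearest coding gene upstream on that strand, 2316 bases from Mir200c. The miR-183 cluster lies on the reverse strand of the same chromosome and overlaps no annotated gene. Mir183 (ENSMUSG00000065619.2) spans 30169668 to 30169737, Mir96 (ENSMUSG00000065586.1) 30169446 to 30169551 and Mir182 (ENSMUSG00000076361.1) 30165918 to 30165992. Mir203 (ENSMUSG00000065574.1) lies between Aspg and Kif26a on the forward strand of chromosome 12, from 112130880 to 112130955, and overlaps no other GENCODE gene.

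Reads on the gene strand of microRNA genes numbered 1573213 in replicate 1 and 5429127 in replicate 2, which was thus 3.45 times as deep. Levels are given as CPM, counts per 1000000 of these reads. A count of 0 allows up to 3 reads, or 1.91 CPM for replicate 1 and 0.553 CPM for replicate 2. Intervals are exact binomial (Clopper-Pearson) 95% intervals, and since no molecular identifiers were used, intervals and limits cover the error of counting alone. The tables count each hairpin as a whole and do not separate its arms. All 10 listed genes of striated muscle reached 2 CPM in both libraries. The highest of them among reads with a single alignment was the skeletal muscle gene Mir206, whose level was 34864 CPM in replicate 1 and in replicate 2 was 72482 CPM. Reads of genes that share their mature microRNA, such as Mir1a-1 with Mir1a-2 and Mir133a-1 with Mir133a-2, can align to several places and were then not counted.

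The 9 genes were scarce in this muscle, and Mir203 supplied most of their reads. Together they held 804 reads in replicate 1 and 1359 reads in replicate 2, a share of 0.0511% (0.0476 to 0.0548) and 0.0250% (0.0237 to 0.0264) of the gene-strand reads counted on microRNA genes. Reads with several alignments are not in these totals. The mean share was 0.0381% ± 0.0184 (SD, n = 2), and without Mir203 it was 0.00919%. A level of at least 2 CPM in both libraries was reached by 5 of the 9 genes, Mir203, Mir182, Mir200c, Mir183 and Mir429, against 14.7% of all 2202 genes. That share includes 1538 genes with no gene-strand read in either library, whereas each of the 9 had reads. Of the 664 genes with a gene-strand read in at least 1 library, 324 reached 2 CPM in both, which is the closer measure. In replicate 1 all 9 genes were at or above 2 CPM.

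Mir200c was the most abundant of the miR-200 genes. It had 60 reads, or 38.1 CPM (29.1 to 49.1), in replicate 1 and 55 reads, or 10.1 CPM (7.63 to 13.2), in replicate 2. Its cluster partner Mir141 had 4 reads in replicate 1 and 3 reads in replicate 2, or 2.54 and 0.553 CPM. The second miR-200 cluster was thus represented almost wholly by 1 of its hairpins in both libraries.

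The cluster on chromosome 4 was lower, and its hairpins were closer to each other in level. Mir200b had 16 reads, or 10.2 CPM (5.81 to 16.5), in replicate 1 and 6 reads, or 1.11 CPM (0.406 to 2.41), in replicate 2. Mir429 had 13 reads, or 8.26 CPM (4.40 to 14.1), in replicate 1 and 18 reads, or 3.32 CPM (1.96 to 5.24), in replicate 2. Mir200a was the lowest of the cluster, with 5 reads in replicate 1 and 3 reads in replicate 2, or 3.18 and 0.553 CPM. Mir200b and Mir429, at means of 5.64 ± 6.41 and 5.79 ± 3.50 CPM (SD, n = 2), did not differ beyond their spread.

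Grouped by seed, the sum of Mir200b, Mir200c and Mir429 was 56.6 CPM (45.4 to 69.6) in replicate 1 and 14.6 CPM (11.5 to 18.1) in replicate 2. Mir200a and Mir141, the pair with the other seed, summed to 5.72 CPM (2.62 to 10.9) in replicate 1 and 1.11 CPM (0.406 to 2.41) in replicate 2. In each library the intervals of the seed groups did not overlap, and the group with the seed AAUACUG was the higher one. Both lowest miR-200 genes, which lie in different clusters, thus carry the same seed.

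In the miR-183 cluster the order was Mir182, Mir183, Mir96 in both libraries. Mir182 had 97 reads, or 61.7 CPM (50 to 75.2), in replicate 1 and 76 reads, or 14.0 CPM (11.0 to 17.5), in replicate 2. Mir183 had 35 reads, or 22.2 CPM (15.5 to 30.9), in replicate 1 and 16 reads, or 2.95 CPM (1.68 to 4.79), in replicate 2. Mir96, whose seed region is mutated in an inherited hearing loss of mice and humans, had 7 reads in replicate 1 and 3 reads in replicate 2, or 4.45 and 0.553 CPM. The last of these values is the level of 3 reads, which a count of 0 would also allow.

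Mir203 stood above all of these. It had 567 reads, or 360 CPM (331 to 391), in replicate 1 and 1179 reads, or 217 CPM (205 to 230), in replicate 2. By mean level, 289 ± 101 CPM (SD, n = 2), it ranked 124 among the 2202 genes, whereas Mir182, the next of the 9, ranked 210 at 37.8 ± 33.7 CPM. Below Mir182 came Mir200c at 24.1 ± 19.8 CPM and Mir183 at 12.6 ± 13.6 CPM, then Mir429, Mir200b, Mir96, Mir200a and Mir141. From Mir182 downwards the difference between neighbouring means was smaller than the SD of the higher gene. The order Mir203, Mir182, Mir200c nevertheless held in each library taken alone, while Mir183 stood above Mir429 in replicate 1 and below it in replicate 2.

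**Figure D1:**
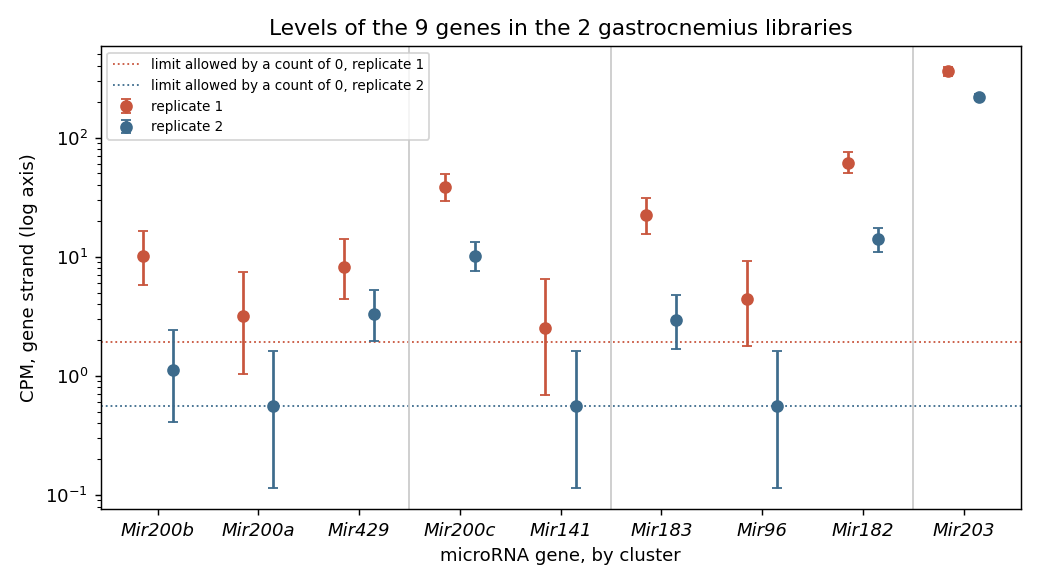
Gene-strand level in CPM (log axis) of each of the 9 genes in replicate 1 (red) and replicate 2 (blue), with exact binomial 95% intervals as bars and the level of 3 reads in each library as dotted lines. Mir203 lies highest, at 360 CPM in replicate 1 and 217 CPM in replicate 2, the next gene, Mir182, lies at 61.7 and 14.0 CPM, and each gene has its higher value in replicate 1.

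The intervals of each gene's share within its cluster overlapped between the libraries, while those of each cluster's share of all 9 genes did not. Overlap of intervals is not a test of the difference. Mir200c made up 93.8% (84.8 to 98.3) of its cluster's reads in replicate 1 and 94.8% (85.6 to 98.9) in replicate 2. Mir182 made up 69.8% (61.4 to 77.3) of the miR-183 cluster in replicate 1 and 80.0% (70.5 to 87.5) in replicate 2. In the cluster on chromosome 4, Mir200b held 47.1% (29.8 to 64.9) in replicate 1 and 22.2% (8.62 to 42.3) in replicate 2, and Mir429 held 38.2% (22.2 to 56.4) in replicate 1 and 66.7% (46.0 to 83.5) in replicate 2. For all 8 clustered genes the intervals of the libraries overlapped, at totals of 27 to 139 reads per cluster and library. Mir200b and Mir429 had the largest shifts within a cluster, in opposite directions, on the fewest reads.

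Mir203, by contrast, held 70.5% (67.2 to 73.7) of the reads of the 9 genes in replicate 1 and 86.8% (84.8 to 88.5) in replicate 2. The miR-183 cluster held 17.3% (14.7 to 20.1) in replicate 1 and 6.99% (5.69 to 8.48) in replicate 2. The miR-200c cluster held 7.96% (6.18 to 10.1) in replicate 1 and 4.27% (3.26 to 5.48) in replicate 2. For the Mir200b cluster these shares were 4.23% (2.95 to 5.86) and 1.99% (1.31 to 2.88). None of these intervals overlapped between the libraries. The shares make up a whole, so a larger share of Mir203 leaves less for the clusters. They rest on totals of 804 and 1359 reads, more than those within single clusters, which narrows the intervals. Taken gene by gene, the intervals of Mir200a, Mir429, Mir141 and Mir96 as shares of the 9 genes did overlap. These shares do not depend on how library totals were scaled.

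**Figure D2:**
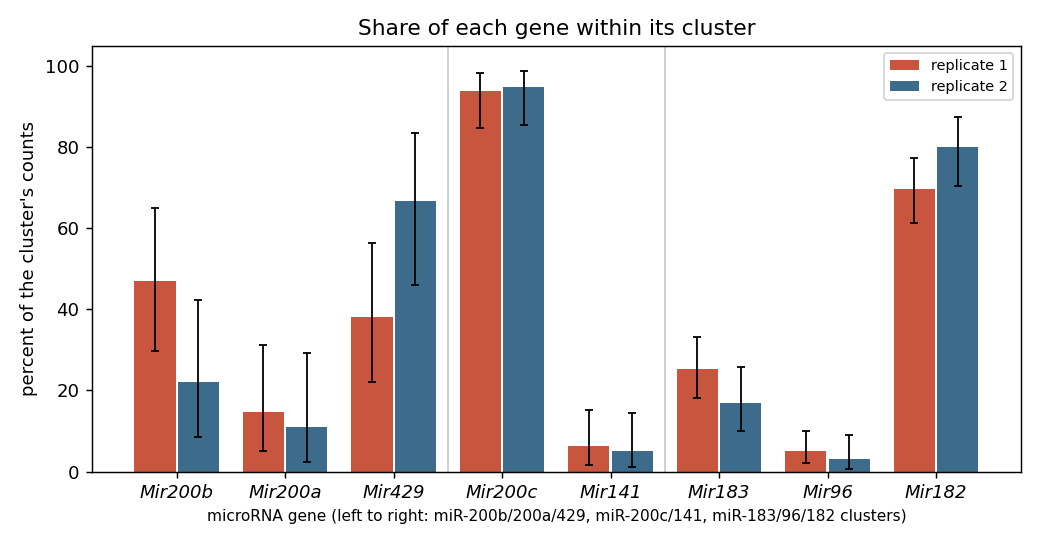
Percent of its own cluster's gene-strand reads held by each gene in replicate 1 (red bars) and replicate 2 (blue bars), with exact binomial 95% intervals. Mir200c and Mir182 lead their clusters in both libraries, and for every gene the intervals of the libraries overlap.

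The 9 genes all had the higher CPM in replicate 1, and 7 of them had fewer reads in the library with 3.45 times the depth. Only Mir203 and Mir429 had more reads in replicate 2. Over all 364 genes whose counts summed to at least 10, replicate 2 had the smaller raw count for 12, or 3.30%, and 5 of these 12 were members, Mir200b, Mir200c, Mir183, Mir96 and Mir182. Of these members, Mir183, Mir96 and Mir182 lie in the same cluster. This count of raw reads was chosen after the values were seen. The libraries were compared by a two-sided exact binomial test on each of the 364 genes, in which library totals set the odds, and p-values were adjusted by Benjamini-Hochberg over all of them. Mir200a and Mir141, with 8 and 7 reads in all, were below the minimum. This comparison is of 2 libraries of 1 group, not of conditions, and it had no replicate check.

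All 7 tested members were higher in replicate 1 at an adjusted p under 0.05, beside 30.2% of all genes tested. Apart from Mir203 they lie in 3 clusters, each spanning at most 3820 bases. The members are thus not 7 separate loci and need not vary independently of each other. No member was higher in replicate 2, beside 15.1% of all genes, and in either direction 45.3% of all genes were called. With few reads a call higher in replicate 2 is hard to reach, so 15.1% is no fair measure for the scarcer members. The log2 ratio of replicate 1 over replicate 2 had a median of 2.14 over the 7 members and 0.15 over the 364 genes. Scaling by TMM or by DESeq2 size factors lowered every ratio by 0.18 or 0.20. It turned the split of all calls from 110 genes higher in replicate 1 and 55 in replicate 2 to 70 and 104 with TMM, or 65 and 107 with DESeq2. All 9 members kept a higher level in replicate 1 under both, and 6 of the 7 tested stayed called. The exception was Mir429, whose adjusted p was 0.0356 with library totals, 0.0713 with TMM and 0.0750 with DESeq2.

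Mir200b showed a 9.20-fold higher level in replicate 1 (3.42 to 28.7, exact binomial test, adjusted p = 3.18e-06). Its log2 ratio of 3.13 ranked 2 among the 364 genes tested, on 22 reads in all. Mir183 was 7.55-fold higher in replicate 1 (4.07 to 14.6, adjusted p = 1.74e-11) and Mir96 8.05-fold higher (1.84 to 48.3, adjusted p = 0.00513). Mir182 was 4.40-fold higher (3.23 to 6.03, adjusted p = 9.39e-21) and Mir200c 3.76-fold higher (2.57 to 5.53, adjusted p = 2.46e-11). Mir429 was 2.49-fold higher, with an interval of 1.12 to 5.38. For the untested Mir200a the fold was 5.75 (1.12 to 37.0) and for Mir141 4.60 (0.778 to 31.4), an interval that includes equal levels.

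Summed by cluster, the differences were of like size for the 3 clusters and smaller for Mir203. The miR-183 cluster was 5.05-fold higher in replicate 1 (3.86 to 6.63), the Mir200b cluster 4.35-fold (2.55 to 7.49) and the miR-200c cluster 3.81-fold (2.63 to 5.53), with overlapping intervals. Mir203 was 1.66-fold higher in replicate 1 (1.50 to 1.84, exact binomial test, adjusted p = 7.51e-21), and its interval overlapped none of these. The sum of the other 8 genes was 4.54-fold higher (3.73 to 5.55).

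The exact binomial test takes reads as the sole source of error, so the members were also tested with room for further variation. Each side of this test is 1 library and its variation was estimated from the difference being tested, so it is no measure of variation between animals. With a common biological coefficient of variation of 26.9%, estimated by edgeR from the same pair of libraries, an exact negative binomial test called 1.65% of the 364 genes higher in replicate 1 and 0.275% higher in replicate 2. Of the 6 genes called higher in replicate 1, 3 are members: Mir183 (edgeR, adjusted p = 0.0106), Mir182 (0.0293) and Mir200b (0.0293). Mir183 and Mir182 lie in the same cluster. The other genes called higher in replicate 1 were Mir451a and Mir144, of red blood cells, and Mir1298. Mir200c (adjusted p = 0.126), Mir96 (0.630), Mir203 (1.00) and Mir429 (1.00) were not called in that test.

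**Figure D3:**
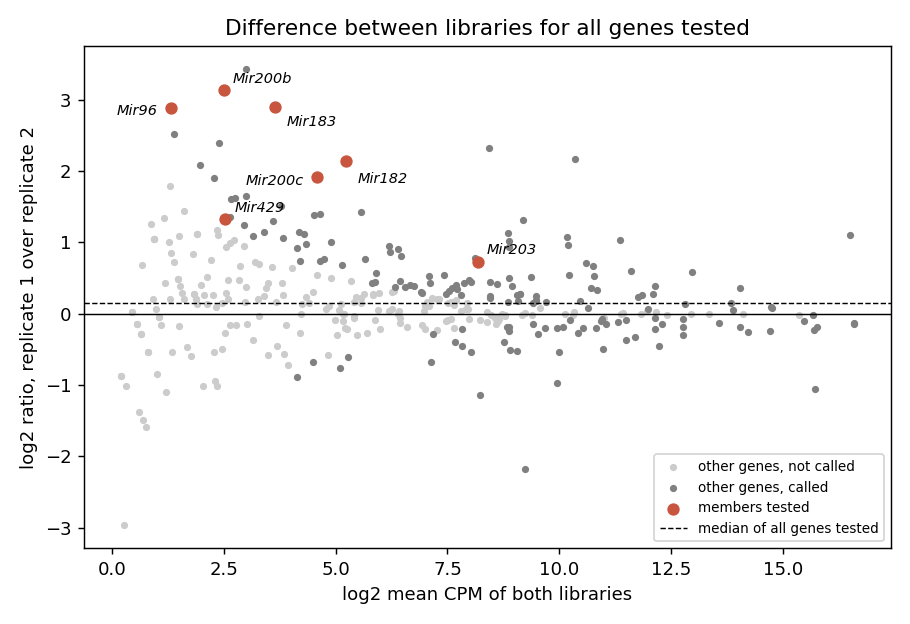
Log2 ratio of replicate 1 over replicate 2 against log2 mean CPM for the 364 genes tested, with the 7 tested members in red and other genes in dark grey (called by the exact binomial test) or light grey (not called). The dashed line marks the median of all genes tested, 0.15; all 7 members lie above it, Mir203 nearest to it.

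Other genes with as few reads had a median log2 ratio closer to that of all genes. The 134 other genes with 10 to 173 reads in all, the range of the tested members without Mir203, had a median of 0.29 with library totals, 0.12 with TMM and 0.09 with DESeq2 size factors. The 7 members had medians of 2.14, 1.96 and 1.93 under these scalings. Of these 134 genes, 25 (18.7%) were called higher in replicate 1 and 1 higher in replicate 2. At the lowest counts the depth of the libraries limits which genes can be called higher in replicate 2. The list of 12 other genes typical of epithelia had a median log2 ratio of 0.73 over its 8 tested genes, of which 2 were called higher in replicate 1 and the other 6 were not called. The called genes were Mir34c and Mir449a, both typical of ciliated epithelia. The level of Mir34c was 113 CPM in replicate 1, against 64.5 CPM in replicate 2, and that of Mir449a was 39.4 CPM in replicate 1, against 19.7 CPM in replicate 2. Mir205, like miR-203 a microRNA of stratified epithelia and like miR-200 a repressor of Zeb1, had 11 reads in replicate 1 and 28 reads in replicate 2, or 6.99 and 5.16 CPM. Its log2 ratio was 0.48 with an interval of -0.72 to 1.49 (exact binomial test, adjusted p = 0.602). Mir192 and Mir194-2, of intestinal epithelium, had log2 ratios of -0.30 and 0.06 and were not called either. Mir34b, Mir375 and Mir31, also not called, had higher log2 ratios of 1.45, 1.12 and 0.66.

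Both listed erythroid genes were higher in replicate 1, and the other lists of more than 1 gene were mixed. The summed level of the erythroid genes Mir451a and Mir144 was 2703 CPM in replicate 1, against 587 CPM in replicate 2, and both were called higher in replicate 1. Mir486, also an erythroid gene but listed under striated muscle, went the other way. Its level was 651 CPM in replicate 1, against 717 CPM in replicate 2 (exact binomial test, adjusted p = 0.0148). The 13 neural genes summed to 1691 CPM in replicate 1, against 802 CPM in replicate 2, of which Mir338 alone gave 1581 and 749 CPM. Of the 7 neural genes tested, 3 were called higher in replicate 1 (Mir338, Mir138-1 and Mir138-2) and 4 were not called. The neuronal genes Mir124a-1, Mir124a-2 and Mir124a-3 were at 0 reads in both libraries. They encode the same mature microRNA, whose reads can align to each of them and would then not be counted, so this 0 does not show absence. The 6 smooth muscle and fibroblast genes, mostly Mir143, summed to 132934 CPM in replicate 1, against 63422 CPM in replicate 2, of which 3 were called higher in replicate 1 and Mir214 higher in replicate 2. The 10 striated muscle genes summed to 36393 CPM in replicate 1, against 75014 CPM in replicate 2, of which Mir206 alone gave 34864 and 72482 CPM. Of these 10 genes, 3 were called higher in replicate 1 and 5 in replicate 2. Mir126a, the single endothelial gene listed, had 93328 CPM in replicate 1, against 103367 CPM in replicate 2. The part of depth and of other cell types in the members' difference was not tested.

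Among the 245 other genes with at least 100 reads in all, those with log2 ratios nearest to the summed members' 1.03 were Mir145a (1.04), Mir15b (1.02), Mir449a (1.00), Mir338 (1.08) and Mir874 (0.98). This likeness rests on a single ratio of 2 libraries, and the sum it refers to is mostly Mir203. The log2 ratio was 0.73 for Mir203 alone and 2.18 for the other 8 genes summed, so 1.03 is the ratio of neither.

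Reads on the strand opposite Mir203 were the most numerous among the 2138 genes of the count tables with no other gene of the tables across from them, which leaves out the 64 genes that overlap one. Mir203 had 43 opposite-strand reads in replicate 1 and 25 in replicate 2, beside 567 and 1179 reads on its own strand. They made up 7.05% (5.15 to 9.38) of the reads at the locus in replicate 1 and 2.08% (1.35 to 3.05) in replicate 2. Of all opposite-strand reads at these 2138 genes, 58 in replicate 1 and 79 in replicate 2, they were 74.1% and 31.6%. Per 1000000 gene-strand reads, the 2138 genes had 47.7 opposite-strand reads in replicate 1 and 19.2 in replicate 2, and without the 9 members 12.3 and 10.5.

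The opposite-strand reads at Mir203 were 5.94-fold higher in replicate 1 (3.54 to 10.1), at 27.3 CPM in replicate 1, against 4.60 CPM in replicate 2. This interval did not overlap that of its gene-strand reads, 1.50 to 1.84. GENCODE M21 has no gene on that strand, but the RefSeq table places miR-203b there, under the symbol Gm51289. The hairpin of Mir203 on its own strand is shown with both mature arms in capitals, followed by the RefSeq arms of miR-203b, read from the other strand, with their seeds in capitals.
Mir203 hairpin: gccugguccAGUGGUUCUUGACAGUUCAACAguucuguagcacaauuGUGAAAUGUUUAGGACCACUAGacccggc
miR-203b-5p: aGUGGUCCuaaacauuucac
miR-203b-3p: uUGAACUGucaagaaccacugg
The arm miR-203b-5p lies across from miR-203-3p, at 112130927 to 112130946 on the reverse strand of chromosome 12, and miR-203b-3p across from miR-203-5p, at 112130887 to 112130908. Aligned from their 5' ends, miR-203b-3p differs from miR-203-3p at 6 of 22 bases, and its seed UGAACUG differs from UGAAAUG in 1 position. The fewest mismatches of miR-203-3p to the opposite strand of its own hairpin, slid without gaps, were also 6. The count tables do not show which arm the opposite-strand reads came from.

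Mir200a was the other member with more than 1 read on the opposite strand, and in replicate 2 they outnumbered those on its own. It had 0 opposite-strand reads in replicate 1 and 10 in replicate 2, beside 5 and 3 gene-strand reads. The opposite strand thus held 76.9% (46.2 to 95) of the reads at Mir200a in replicate 2, whereas 0 of 5 reads in replicate 1 allowed a share of up to 52.2%. Mir200b had 1 opposite-strand read in replicate 2 and none in replicate 1, and the remaining 6 members had none in either library. The mature arm miR-200a-3p had at least 9 mismatches to the opposite strand of its own hairpin. When strand is ignored, Mir200a has 5 reads in replicate 1 and 13 in replicate 2, and its log2 ratio of 2.44 becomes 0.46, so the size of its difference between the libraries rests on the gene-strand column.

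**Figure D4:**
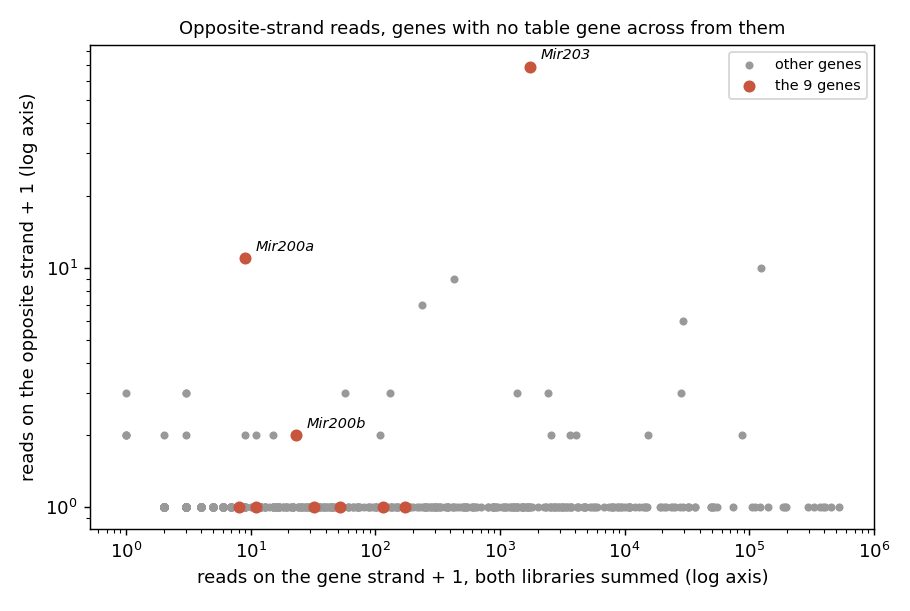
Reads on the opposite strand against reads on the gene strand, both libraries summed and 1 added (log axes), for the GENCODE M21 microRNA genes with no other gene of the count tables across from them, with the 9 members in red. Mir203 has the most opposite-strand reads, 68 in all, followed by Mir200a with 10, and the other members have 0 or 1.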

How the data were processed

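Small RNA was sequenced from 2 gastrocnemius libraries of 1 group. The authors deposited raw counts per microRNA gene in 3 columns per library, without a header; judged by their values, the columns are either-strand, gene-strand and opposite-strand reads, above which 4 rows tally unassigned reads. The assembly mm10 comes from the labels and the annotation M21 from the deposited readme texts. No aligner or counter is given in the sources used here. Reads with several alignments, 68.6% in replicate 1 and 69.7% in replicate 2, were assigned to no gene by the authors, and all 4 tally rows stayed out of library totals. All 2202 identifiers matched GENCODE M21. Levels were CPM of gene-strand counts over the sum of all gene rows, and ratios used an offset of 0.5 counts.

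The exact binomial test of SciPy 1.17.1 was run across all genes whose counts summed to at least 10. It was tested on simulated data with counting error alone, so that check does not cover further variation between libraries. R 4.3.3 with edgeR 4.0.16 (TMM, common dispersion, exact negative binomial test) and DESeq2 1.42.0 (size factors) gave alternatives. Sequences came from RefSeq (GRCm38.p6). The genes named were the 9 members, list members with reads, overlapping or neighbouring genes, and the 5 genes with the nearest ratio. Members and lists were chosen with earlier results of these data known.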

Additional observations from a re-analysis of the deposited data

Results flagged for a closer look

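Opposite-strand reads lie outside the main measurement, and at Mir203 and Mir200a they exceeded the 3 reads that a count of 0 allows. The reads opposite Mir203 numbered 43 in replicate 1 and 25 in replicate 2, and those opposite Mir200a numbered 10 in replicate 2, with 0 in replicate 1. There were no control samples to set them against. Their source was not tested.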

How the results depend on the processing

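The mean share held by the 9 genes, 0.0381%, moved by less than its SD with either-strand reads, both strands summed or all reads given to 1 place as denominator. It was 0.00919% without Mir203 and between 0.0250% and 0.0511% with a replicate left out. The count of members at 2 CPM or more, 5, was 3 at a minimum of 5 CPM and between 5 and 9 with a replicate left out. The count of members called higher in replicate 1, 7, was 6 or 7 with TMM, DESeq2 size factors, either-strand reads, both strands summed or no minimum count. It was 4 at a minimum summed count of 50, where 4 members could be tested, and 3 in edgeR's exact negative binomial test. Mir429 lost its call with TMM, DESeq2 size factors, no minimum (adjusted p = 0.0627) and the negative binomial test, over a range of 0.0339 to 1.00. No member changed direction under the alternatives run. The difference between libraries could not be recomputed with a replicate left out, and no paired analysis was possible because there was 1 group. At 7 to 22 reads, the values of Mir141, Mir200a, Mir96 and Mir200b are limited by depth.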

Other observations

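Besides the 5 members, 7 genes tested had fewer raw reads in replicate 2 than in replicate 1: Mir451a, Mir144, Mir1298, Mir133a-2, Mir1948, Mir490 and Mir760. Mir1298 had the highest log2 ratio of these, 3.43, on 23 reads in replicate 1 and 7 reads in replicate 2. Among genes with no other gene of the count tables across from them, the next after Mir203 and Mir200a in opposite-strand reads were Mirlet7b, with 2 in replicate 1 and 7 in replicate 2 beside 27767 and 95995 gene-strand reads, and Mir122, with 2 and 6 beside 152 and 273.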
